A study of Homo sapiens with 12 samples.

Results

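The 40 genes described here act in G2 and mitosis, the last steps before a cell divides. They were listed by symbol for their roles, with earlier results of these data known. All 40 had a probe on the array, with 64 probes among them, out of 20046 genes that could be named there. All 40 passed the filter on dim probes, as did 10970 genes in total. The level given for a gene is the background-corrected and normalised log2 intensity of its brightest probe, so levels are compared between arrays for 1 gene and not between genes.

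The arrays come from JIMT1 cells, a HER2-positive breast cancer line without hormone receptors that resists trastuzumab, in 6 groups of 2 biological replicates. Xenografts were tumors collected 43 days after JIMT1 cells, mixed with Matrigel, had been placed in the mammary fat of immunodeficient BALB/C-nude mice, so a tumor can also hold cells of its host. MG4d and MG7d cells had grown for 4 and 7 days on top of Matrigel, a gel of basement membrane proteins, which was dissolved with Dispase before RNA isolation. PH4d and PH7d cells had spent 4 and 7 days in wells coated with polyHEMA, which prevents attachment, so that they form clusters in suspension. 2D7d cells had grown for 7 days as a monolayer and serve as the reference. The study's discussion of its drug screens states that Matrigel cultures had less serum, and polyHEMA cultures a higher seeding density, than the others. It does not say whether this held for the array cultures, where neither could be told apart from the culture model.

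Entry into mitosis is driven by the kinase CDK1 bound to cyclin B, and the Aurora and Polo-like kinases then build the spindle. Kinetochores tie the chromosomes to spindle microtubules, and the spindle checkpoint holds back the anaphase-promoting complex, which CDC20 activates, until every chromosome is attached. Most of these genes are transcribed only late in the cell cycle: in resting cells the DREAM complex represses them through a promoter element called CHR, and in G2 the MuvB core switches to B-MYB and FOXM1, which activate them together with NF-Y at CCAAT boxes. Their RNA is therefore widely used as a sign of how many cells in a culture are dividing. In RNA from a whole culture, fewer dividing cells and less RNA per dividing cell cannot be told apart.

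Many of the promoters carry 1 or both of these elements. Of the 40 genes, 33 matched the RefSeq promoter table (GRCh38.p14), and the 250 bases before the start site were searched on both strands for the CCAAT box, spelled CCAAT, and for the CHR, spelled TTTGAA in its first form and TTCGAA in its second. A CCAAT box was found in 25 of the 33 (75.8%, against 33.0% of 27305 promoters in the table), a CHR in 17 (51.5%, against 14.6%) and both in 16 (48.5%, against 5.24%). At least 2 CCAAT boxes were found in 16 (48.5%, against 10.0%), and these are also counted in the first group. A match shows the letters and not a bound site. AURKA, BIRC5, BUB3, FOXM1, TPX2, TTK and UBE2C were not matched. The stretches below are shown because these genes hold both elements and span the range of the results: KIF11, KIF23, PRC1, HMMR and TOP2A had means at least 2-fold higher in MG4d than in 2D7d, and CCNB2, CDC20 and PLK1 had smaller differences, from 0.30 to -0.79 on the log2 scale. Capitals mark the CCAAT box and the CHR in its first form, each on either strand (ATTGG is the box read from the other strand), and each stretch is 5′ to 3′ on the gene's strand and ends before the start site.
KIF11 (chr10:92593072-92593112, plus strand): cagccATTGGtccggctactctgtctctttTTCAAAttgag
KIF23 (chr15:69414280-69414304, plus strand): cgctgATTGGcccgTTTGAAatgcg
PRC1 (chr15:90994545-90994593, minus strand): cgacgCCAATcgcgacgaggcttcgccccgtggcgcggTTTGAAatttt
HMMR (chr5:163460450-163460620, plus strand): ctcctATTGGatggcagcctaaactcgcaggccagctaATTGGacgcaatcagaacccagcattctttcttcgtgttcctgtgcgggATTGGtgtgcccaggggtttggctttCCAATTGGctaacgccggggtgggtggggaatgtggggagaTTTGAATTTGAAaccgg
TOP2A (chr17:40417940-40418145, minus strand): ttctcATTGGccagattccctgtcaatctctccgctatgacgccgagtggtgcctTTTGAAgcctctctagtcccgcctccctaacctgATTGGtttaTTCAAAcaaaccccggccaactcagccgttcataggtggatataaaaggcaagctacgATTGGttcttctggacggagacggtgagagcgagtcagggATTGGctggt
CCNB2 (chr15:59104897-59105127, plus strand): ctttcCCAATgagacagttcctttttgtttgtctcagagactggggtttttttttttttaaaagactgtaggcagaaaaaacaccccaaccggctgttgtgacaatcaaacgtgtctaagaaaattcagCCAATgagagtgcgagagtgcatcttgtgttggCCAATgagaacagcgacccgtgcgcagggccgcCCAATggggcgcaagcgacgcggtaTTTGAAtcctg
PLK1 (chr16:23678811-23678870, plus strand): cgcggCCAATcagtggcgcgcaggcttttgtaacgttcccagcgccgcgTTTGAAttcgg
CDC20 (chr1:43358798-43358935, plus strand): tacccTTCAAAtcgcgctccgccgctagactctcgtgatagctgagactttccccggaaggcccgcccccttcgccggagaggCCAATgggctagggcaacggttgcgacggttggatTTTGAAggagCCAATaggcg

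The spacing of the elements differed among these promoters. In KIF11 the CCAAT box began 53 bases before the start site and the CHR 28 bases before it. PLK1 had them at 73 and 29 bases. HMMR had 5 CCAAT matches, a pair of them overlapping on opposite strands, and 2 CHR copies side by side. The 16 genes with both elements had a median log2 difference of 0.83 between MG4d and 2D7d (range -0.79 to 2.55), and the 17 matched genes without the pair had one of 1.15 (range -0.84 to 1.83). In this comparison, described below, 6 of the 16 and 4 of the 17 were called higher.

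Across the arrays, between 13952 and 18430 of 47323 probes were detected, and the median intensity before correction lay between 95.07 and 107. Between 37 and 40 of the 40 genes were detected on each array. All 6 markers of JIMT1 epithelial cells, keratins KRT8, KRT18 and KRT19, EPCAM, CDH1 and ERBB2, were detected on both arrays of every group. Their summed intensity before correction was 36700 to 42570 in MG4d, 46690 to 47050 in MG7d, 55600 to 63910 in PH4d, 50480 to 66000 in PH7d and 50030 to 56260 in the xenografts, against 65330 to 66220 in 2D7d. ERBB2 was called lower in MG4d than in 2D7d (-1.37, adjusted p = 0.0136), and ERBB2 and CDH1 were called higher in PH4d than in MG4d (1.37 and 1.02). The part of this in the results below was not tested. The replicates of polyHEMA cultures stood apart from each other: 38.2% of all genes differed at least 2-fold between the PH4d arrays and 30.5% between the PH7d arrays, against 1.97% in 2D7d and under 0.2% in MG4d, MG7d and the xenografts. These 4 arrays enter the estimate of spread for every comparison in the model, and results are given below also without them.

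The highest group mean was in MG4d for 30 of the 40 genes, in 2D7d for 8, in MG7d for 1 (BUB1) and in the xenografts for 1 (CKAP2). The lowest group mean was in PH7d for 31 genes, in 2D7d for 7 and in the xenografts for 2. The 8 genes that were highest in the monolayer were AURKB, PLK1, BIRC5, CDC20, CDC25B, CDC25C, CENPA and FOXM1. The heat map of all 40 genes shows both sets on every array.

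**Figure D1:**
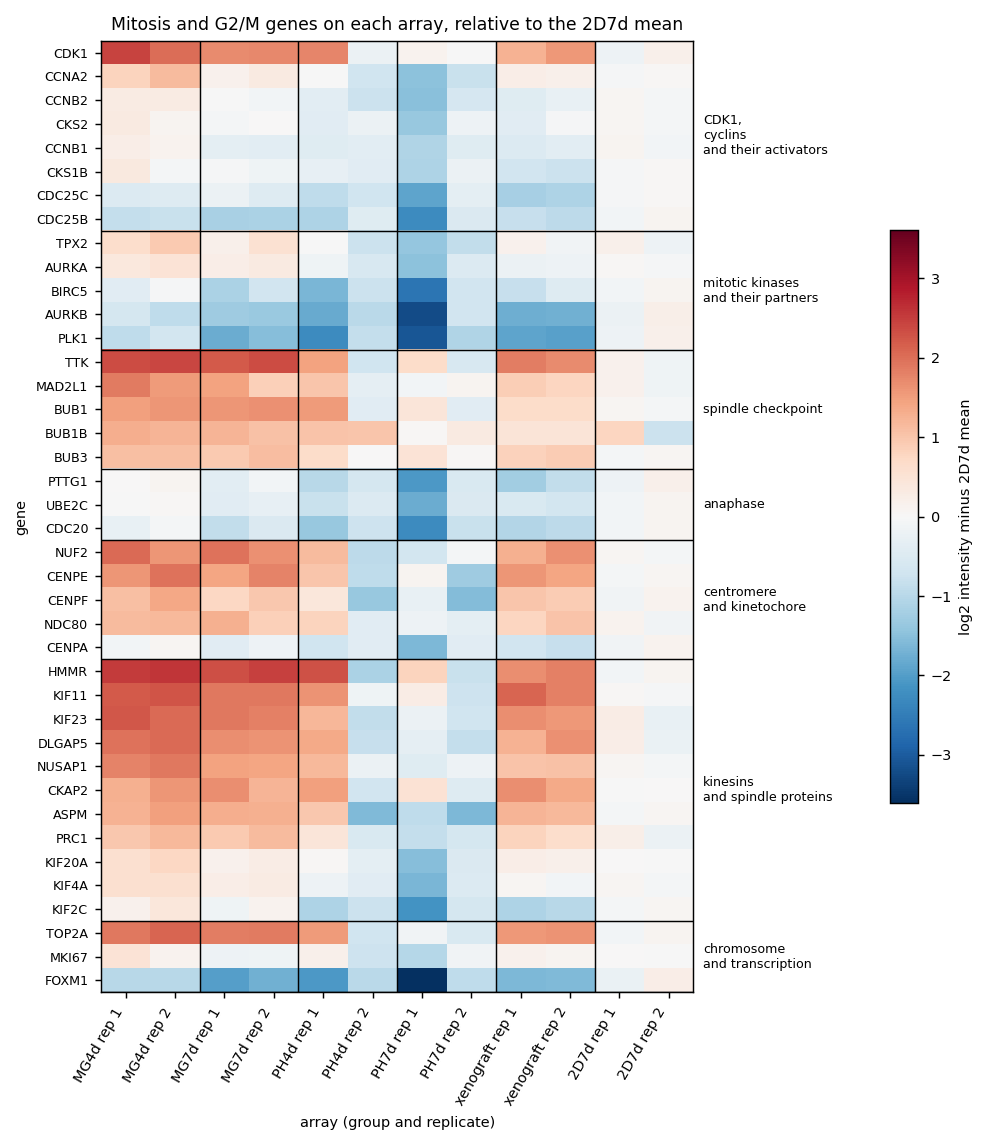
Log2 intensity of the 40 genes (rows, grouped by role) on the 12 arrays (columns) minus the mean of both 2D7d arrays, on a colour scale with red for higher and blue for lower. KIF11, KIF23, HMMR, NUF2 and TTK are red on the MG4d, MG7d and xenograft arrays and on PH4d replicate 1, while AURKB, PLK1 and FOXM1 are blue there, and PH7d replicate 1 holds the lowest value, that of FOXM1.

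Whether growth on Matrigel changed these genes was asked first against the monolayer. In MG4d, 12 of the 40 genes were higher than in 2D7d and none was lower, at an adjusted p under 0.05 from limma and at least a 2-fold difference. Of all genes tested, 10.2% were called higher and 11.5% lower in this comparison. The 40 genes had a median log2 difference of 0.88, beside -0.07 for all genes, with a range from -1.0 (FOXM1) to 2.55 (HMMR). Both MG4d arrays lay above both 2D7d arrays for 29 genes and below them for 5, where 40.5% and 44.9% of all genes did so.

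The spindle motors and their partners gave the largest group of calls. KIF11, the kinesin that pushes spindle poles apart, had log2 intensities of 9.53 and 9.61 in MG4d, against 7.38 and 7.29 in 2D7d. Its log2 difference was 2.23 (standard error 0.52, adjusted p = 0.0245). KIF23, a kinesin of the central spindle needed for cytokinesis, had 10.04 and 9.84 in MG4d and 8.07 and 7.55 in 2D7d, a rise of 2.13 (standard error 0.55, adjusted p = 0.0317).
The groups did not overlap for either kinesin. Of the 11 kinesins and spindle proteins, 5 rose and 6 did not pass the test, with a median difference of 1.43. The others that rose were NUSAP1, which bundles microtubules near chromosomes (1.83, adjusted p = 0.0195), DLGAP5, which stabilises kinetochore fibres (1.99, adjusted p = 0.0405), and PRC1, which cross-links antiparallel microtubules (1.07, adjusted p = 0.0436). HMMR, a microtubule-binding protein of the spindle poles, had the largest difference of all 40 genes and was not called. It had 10.50 and 10.57 in MG4d against 7.90 and 8.08 in 2D7d, a difference of 2.55 with a standard error of 0.90 (adjusted p = 0.0616), and is named here after its values were seen.

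Among the checkpoint genes, 3 of 5 rose. TTK, the kinase that starts checkpoint signalling at kinetochores, had 9.80 and 9.84 in MG4d against 7.59 and 7.29 in 2D7d, a rise of 2.38 (standard error 0.62, adjusted p = 0.0317). MAD2L1, the subunit that binds and blocks CDC20, rose by 1.69 (adjusted p = 0.026) and BUB3, an adaptor that recruits BUB kinases, by 1.08 (adjusted p = 0.0287). The checkpoint genes that did not pass, BUB1 and BUB1B, differed by 1.54 and 1.27 (adjusted p = 0.0592 and 0.051). Of the 5 centromere and kinetochore genes, CENPE, CENPF and CENPA differed by 1.77, 1.23 and -0.02 and were not called. With the polyHEMA arrays left out, CENPE and CENPF were called higher. In the model with all arrays, 2 of the 5 were called higher. These were NDC80, which contacts the microtubule (1.15, adjusted p = 0.0488), and NUF2, its partner in the same complex. NUF2 had 7.84 and 7.41 in MG4d and was not detected on either 2D7d array, so that it was at least 2.76-fold higher in MG4d (adjusted p = 0.0454), a bound that sets the 2D7d level at the lowest detected signal of each array.

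CDK1, the kinase of mitotic entry, had 11.07 and 10.64 in MG4d against 8.44 and 8.81 in 2D7d. It rose by 2.23 (standard error 0.52, adjusted p = 0.025), while its cyclins did not pass the test. CCNB1, which encodes cyclin B1, had 9.41 and 9.29 in MG4d against 9.26 and 9.09 in 2D7d, a difference of 0.17 (standard error 0.25). CCNA2, another cyclin gene, had 10.65 and 11 in MG4d against 9.82 and 9.89 in 2D7d, a difference of 0.97, under 2-fold. Of the 8 genes of CDK1, cyclins and activators, CDK1 was thus the 1 that was called. TOP2A, the topoisomerase that untangles chromosomes before they separate, had 11.76 and 11.96 in MG4d against 9.78 and 9.96 in 2D7d, a rise of 1.99 (adjusted p = 0.0391). MKI67, which coats mitotic chromosomes and is the antigen of the Ki-67 stain, was measured by 1 dim probe that was detected on 6 of 12 arrays, with 6.30 and 5.92 in MG4d and 5.81 and 5.8 in 2D7d (difference 0.30, adjusted p = 0.515). It was detected on no 2D7d or PH7d array, so its differences to these groups, here and below, are read against background.

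The kinases at the other end of the list showed no rise. AURKB, the kinase of the chromosomal passenger complex that corrects faulty attachments, had 9.58 and 9.30 in MG4d against 10.02 and 10.42 in 2D7d, a difference of -0.78 (standard error 0.66, adjusted p = 0.341). PLK1, the Polo-like kinase of centrosomes and kinetochores, had 8.65 and 8.89 in MG4d against 9.37 and 9.74 in 2D7d, a difference of -0.79. Both MG4d arrays lay below both monolayer arrays for these kinases. Without the polyHEMA arrays their adjusted p was 0.00243 and 0.00264, and both stayed uncalled because the difference was under 2-fold. BIRC5, or survivin, a passenger complex subunit, differed by -0.23 and CDC20, the activator of the anaphase-promoting complex, by -0.17, and both overlapped between the groups. None of the 5 mitotic kinases and partners and none of the 3 anaphase genes (CDC20, UBE2C and PTTG1) was called.

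**Figure D2:**
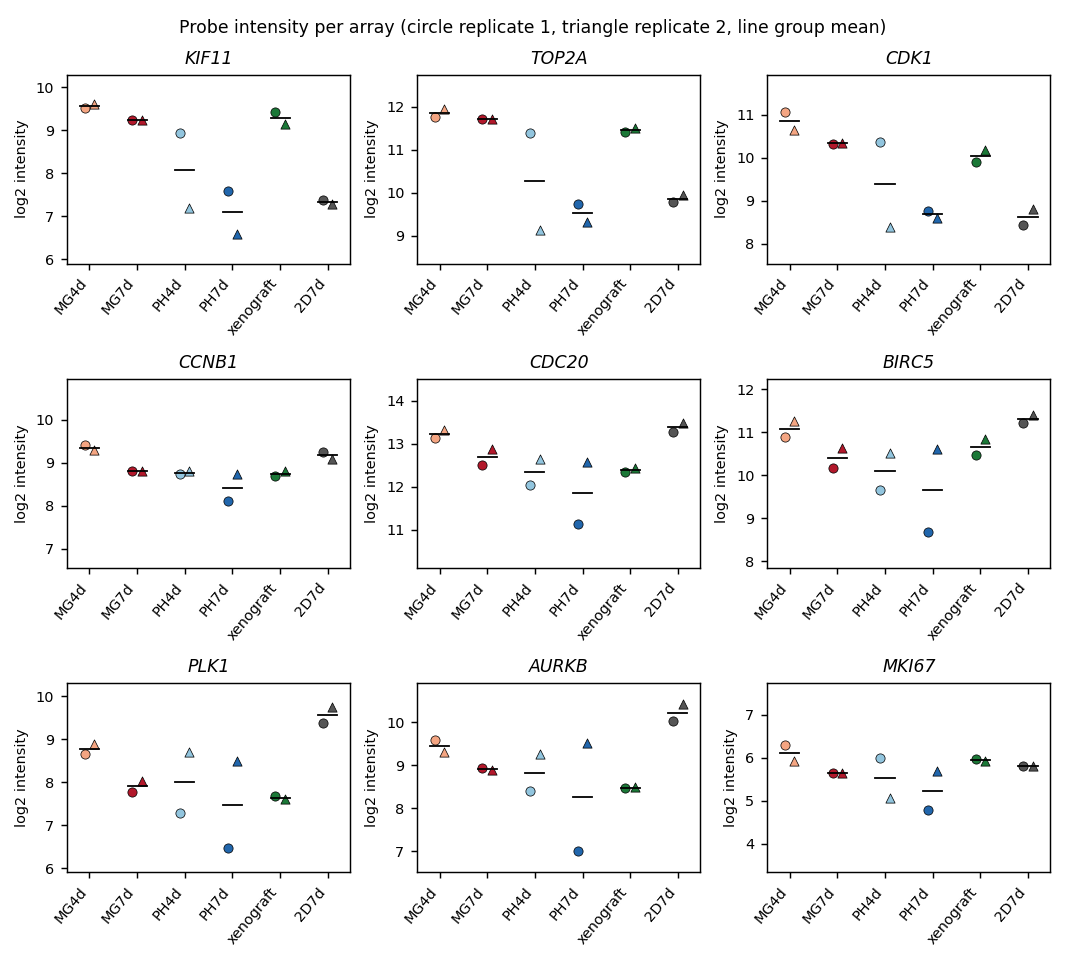
Log2 intensity (vertical axis, of the same span in each panel) of 9 genes in the 6 groups (horizontal axis), with a circle for replicate 1, a triangle for replicate 2 and a line at the group mean. KIF11, TOP2A and CDK1 are higher in MG4d, MG7d and xenografts than in 2D7d, AURKB and PLK1 are lower, and the polyHEMA replicates lie far apart for AURKB and PLK1 on both days and for KIF11, TOP2A and CDK1 in PH4d, but not for CCNB1 in PH4d or CDK1 in PH7d.

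After 7 days on Matrigel, 9 of the 40 genes were higher than in 2D7d and none was lower, where 10.8% and 10.3% of all genes were called. The median difference was 0.31 (all genes -0.01) and the range ran from -1.86 (FOXM1) to 2.38 (HMMR). TTK had 9.66 and 9.80 in MG7d against 7.59 and 7.29 in 2D7d, a rise of 2.28 (standard error 0.62, adjusted p = 0.0386). KIF11 had 9.24 on both MG7d arrays, a rise of 1.90 (adjusted p = 0.0385). The other genes that rose were TOP2A (1.85), KIF23 (1.84), CDK1 (1.71), NUSAP1 (1.44), PRC1 (1.05), BUB3 (1.02) and NUF2, which was at least 2.73-fold higher. Their adjusted p lay between 0.0373 and 0.0474. BUB3 was read by 3 kept probes, whose differences in MG7d ran from 0.06 to 1.02.

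Both MG7d arrays were above both 2D7d arrays for 23 of the 40 genes and below them for 11, where 42.1% and 42.5% of all genes were. The 11 include the kinases. AURKB had 8.94 and 8.88 in MG7d against 10.02 and 10.42 in 2D7d, a difference of -1.31 (adjusted p = 0.132), and PLK1 had 7.78 and 8.03 against 9.37 and 9.74, a difference of -1.65 (adjusted p = 0.0671). FOXM1, the transcription factor of this gene programme, had 8.64 and 8.90 against 10.38 and 10.88, a difference of -1.86 (adjusted p = 0.0724). Among the other followed genes the differences were -0.90 for BIRC5, -0.71 for CDC20, -0.37 for CCNB1 and -0.17 for MKI67, and none was called.

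**Figure D3:**
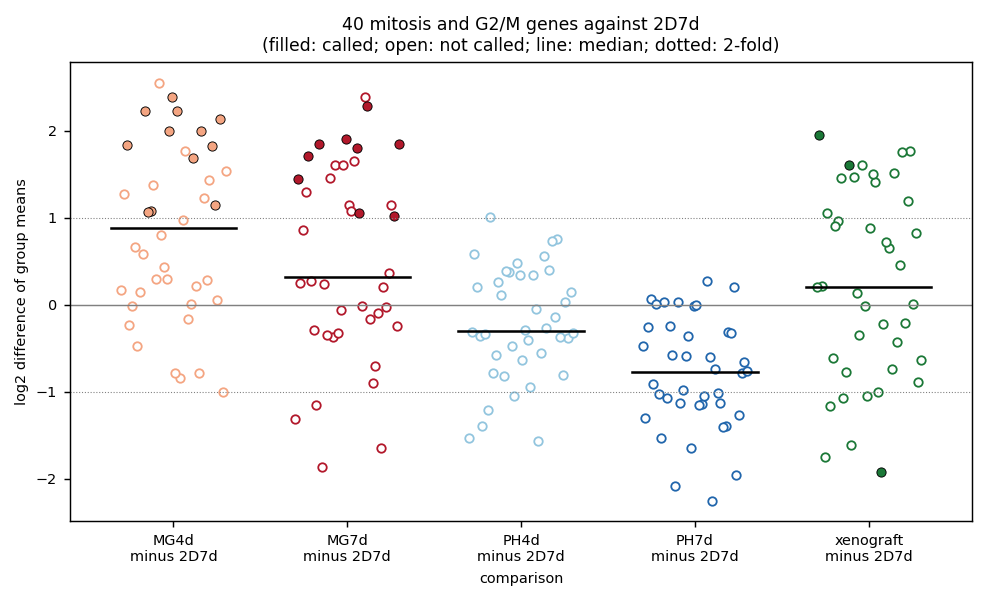
Log2 difference between each group and 2D7d (vertical axis) for the 40 genes in 5 comparisons (horizontal axis), with filled points for called genes, open points for the others, a line at the median and dotted lines at 2-fold. The medians run from -0.77 (PH7d) to 0.88 (MG4d), and calls are seen for MG4d, MG7d and the xenografts.

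These counts depended on which arrays set the spread. With all polyHEMA arrays left out, a choice added after the data were seen, 19 of the 40 genes were higher and 1 was lower in MG4d (22% and 17.5% of all genes), and 18 were higher and 4 lower in MG7d (23.6% and 17%). HMMR was then called with the same difference and a standard error of 0.16 (adjusted p = 2.49e-06 in MG4d). FOXM1 fell by 1.00 in MG4d and by 1.86 in MG7d, and in MG7d PLK1 fell by 1.65, AURKB by 1.31 and CDC25B, a phosphatase that activates CDK1, by 1.15. Without either MG4d array or either 2D7d array, 0 of the 40 genes and 0% of all genes were called in MG4d. In MG4d 4 were higher without either MG7d array (2.99% of all genes) and 3 without either xenograft array (2.84%). The count in MG7d was 0 without any 1 of the arrays of MG4d, MG7d, the xenografts or 2D7d, where at most 1.15% of all genes were higher and 1.02% lower. Without either PH4d array there were 19 calls in MG4d (19.8% of all genes higher and 16.6% lower) and 20 in MG7d (22.3% and 16.4%), and without either PH7d array 17 (18.1% and 15.8%) and 19 (20.2% and 15.6%), so that the counts moved together with those over all genes. In all these fits the lone array of a group is assumed to vary like the other groups. Below, some counts with arrays left out stand without a share over all genes. Such counts do not show whether the 40 genes moved apart from all genes.

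Between the days on Matrigel no gene of the 40 was called, where 0.729% of all genes were higher and 0.164% lower on day 7. At an unadjusted p under 0.05 there was 1, beside 12.5% of all genes. Of the 40, 37 had a lower mean in MG7d than in MG4d, and both MG7d arrays were below both MG4d arrays for 30 of them and above for none, where 29.8% of all genes were below and 35.2% above. The median difference was -0.30, beside 0.03 for all genes. FOXM1 had 8.64 and 8.90 in MG7d against 9.64 and 9.62 in MG4d, and PLK1 had 7.78 and 8.03 against 8.65 and 8.89, a difference of -0.86 for each. KIF11 differed by -0.33 and TOP2A by -0.14.

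On polyHEMA no gene of the 40 was called against 2D7d on either day. In PH4d 2.58% of all genes were higher and 1.84% lower, and 3 of the 40 genes had an unadjusted p under 0.05, beside 23.9% of all genes. In PH7d 3.87% of all genes were higher and 2.36% lower, and 19 of the 40 had an unadjusted p under 0.05, beside 25.2% of all genes. The median difference was -0.30 in PH4d and -0.77 in PH7d, beside 0.03 and 0.05 for all genes, and in PH7d 17 genes were at least 2-fold lower and none was 2-fold higher. Both PH7d arrays were below both monolayer arrays for 28 of the 40 genes and above them for none, where 27.8% and 27.4% of all genes were. In PH4d the counts were 17 below and 1 above (BUB1B, a checkpoint kinase-like protein), where 26.6% and 23.6% of all genes were.

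The genes that lay lowest in PH7d were the same kinases and their regulator. AURKB had 7.01 and 9.52 in PH7d against 10.02 and 10.42 in 2D7d, a difference of -1.96 (standard error 0.66, adjusted p = 0.111). PLK1 had 6.47 and 8.48 against 9.37 and 9.74, a difference of -2.08 (adjusted p = 0.0814). FOXM1 had 7.03 and 9.73 against 10.38 and 10.88, a difference of -2.25 (adjusted p = 0.0989).
In each of these genes the PH7d arrays were over 2 log2 units apart, and replicate 1 was the low one. CDC20 had 11.13 and 12.57 in PH7d against 13.28 and 13.49 in 2D7d, and BIRC5 had 8.69 and 10.62 against 11.21 and 11.41. CCNB1 had 8.10 and 8.73 against 9.26 and 9.09 (difference -0.76). For KIF11, TOP2A and CDK1 the differences were small, at -0.24, -0.33 and 0.06.

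The polyHEMA replicates differed in opposite directions for different genes of the 40. In PH4d 18 of the 40 were at least 2-fold apart between the replicates, 16 of them higher on replicate 1, and in PH7d 19 were, 5 of them higher on replicate 1. In 2D7d 1 gene was 2-fold apart (BUB1B), and in MG4d, MG7d and the xenografts none was. HMMR had 10.27 on PH4d replicate 1 and 6.86 on replicate 2, and ASPM, a spindle pole protein, had 10.15 and 7.59. AURKB went the other way, with 8.40 on PH4d replicate 1 and 9.26 on replicate 2, as did PLK1, with 7.28 and 8.70.

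This difference ran with the differences of the other groups to 2D7d. Across the 40 genes, the difference between PH4d replicates (1 minus 2) had a Pearson correlation of 0.93 with the difference between MG4d and 2D7d, measures that share no array, and the PH7d difference had one of 0.89. With the difference between xenografts and 2D7d the correlations were 0.94 and 0.91, and with that between MG7d and 2D7d 0.93 and 0.91. Across all 10970 genes they lay between 0.79 and 0.85. The points share normalisation and probe chemistry and are no independent replicates. The 19 genes that were at least 2-fold higher in MG4d than in 2D7d were all higher on PH4d replicate 1 than on replicate 2, with a median of 1.96, while the other 21 had a median of -0.19. On day 7, 14 of the 19 and none of the 21 were higher on replicate 1, with medians of 0.53 and -1.22. These counts were not set beside those of all genes, and the correlations over all genes show that the pattern was not particular to the 40. NUF2 was counted on day 7 as lower on replicate 1, but its brightest probe was detected on neither PH7d array. A second NUF2 probe had 6.19 on PH7d replicate 1 and 4.52 on replicate 2.

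**Figure D4:**
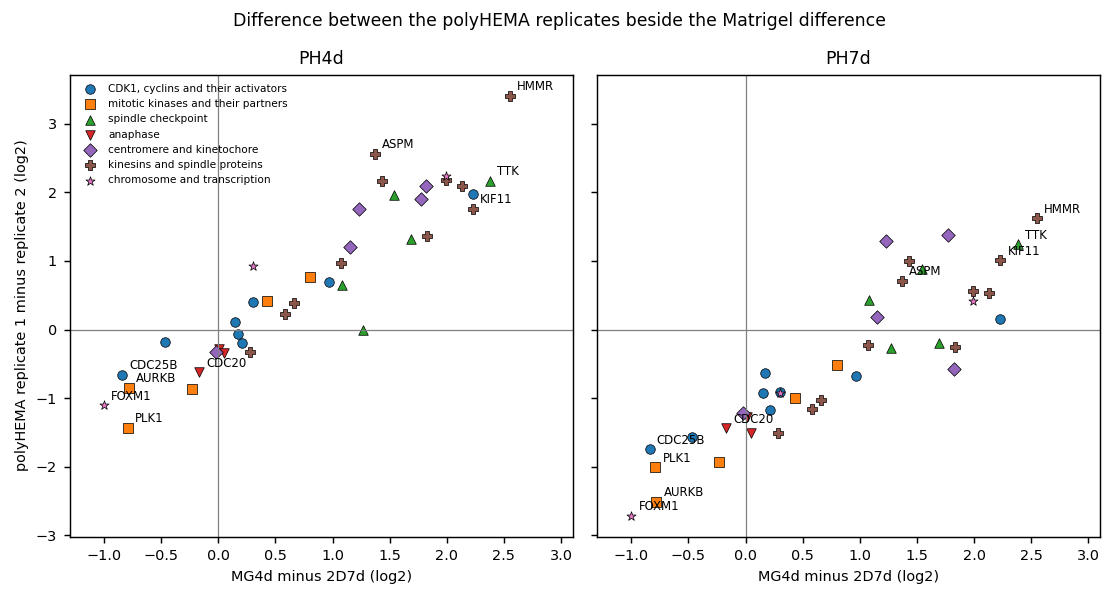
Difference between polyHEMA replicates (replicate 1 minus replicate 2, log2, vertical axis) for PH4d (left) and PH7d (right) against the difference between MG4d and 2D7d (log2, horizontal axis), with 1 point per gene and a symbol for its role. HMMR and TTK are higher on replicate 1 on both days and FOXM1, AURKB and PLK1 lower. On day 7 some genes that are high on Matrigel, such as NUSAP1, are lower on replicate 1.

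Taken singly, the PH4d arrays gave different counts. On PH4d replicate 1, 21 of the 40 genes were above both 2D7d arrays and 17 below (45.4% and 47.2% of all genes), with a median difference of 0.12. On PH4d replicate 2, 1 was above and 38 were below (38% and 39.5% of all genes), with a median of -0.70. With replicate 1 of both days as the only polyHEMA arrays, 11 of the 40 genes were higher and 7 lower in PH4d than in 2D7d (25.3% and 20.1% of all genes), and 21 were lower in PH7d (17.9% of all genes) with none higher. With replicate 2 only, 3 were lower in PH4d (3.3%) and 4 in PH7d (3.45%), and none was higher. Of single arrays, leaving out PH4d replicate 2 gave 12 calls in PH4d (20% of all genes higher and 17.5% lower), leaving out PH4d replicate 1 or 2D7d replicate 1 gave 1, and leaving out either PH7d array gave 4 (4.6% and 3.95%). In PH7d there were 20 calls with replicate 2 of that group left out (13.5% and 12.3%), 0 with its replicate 1 left out and 6 without either PH4d array (6.84% and 5.21%).

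The change from day 4 to day 7 on polyHEMA also rested on 1 replicate. In the model with all arrays no gene was called for PH7d against PH4d, in the 40 or among all genes (0%), and 4 of the 40 had an unadjusted p under 0.05, beside 1.14% of all genes. All 40 had a lower mean in PH7d than in PH4d, with a median of -0.53 (all genes 0.02), and both arrays of PH7d were below both of PH4d for 6 of them, where 3.84% of all genes were, and above for none, where 5.59% were. Taken by replicate number, all 40 genes were lower on day 7 on replicate 1, with a median of -1.12, and 25 of them were at least 2-fold lower, where 1.39% of all genes were. On replicate 2, 18 were lower on day 7, none by 2-fold, with a median of 0.04. The labels do not say that arrays of 1 number share a culture or a day.

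On replicate 1, ASPM had 8.27 in PH7d against 10.15 in PH4d, TOP2A had 9.75 against 11.39, and NUSAP1 had 9.18 against 10.78. With replicate 1 as the only polyHEMA array of each day, limma called 21 of the 40 genes lower in PH7d and none higher, where 0.665% of all genes were lower and 0.629% higher. ASPM fell by 1.88, TOP2A by 1.64 and NUSAP1 by 1.60. Each day then has 1 array, which is assumed to vary as in the other groups. The polyHEMA replicates varied more, with 38.2% of all genes at least 2-fold apart in PH4d and 30.5% in PH7d. Such calls therefore do not measure the spread between polyHEMA cultures, here or wherever 1 polyHEMA replicate is kept. On replicate 2 the same genes had 7.56 in PH7d against 7.59 in PH4d for ASPM, 9.33 against 9.15 for TOP2A and 9.45 against 9.41 for NUSAP1, and no gene of the 40 was called with that replicate alone. The difference between the day change in Matrigel and that on polyHEMA was called for none of the 40 genes (0.0273% of all genes higher and 0% lower), with a median of 0.26.

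**Figure D5:**
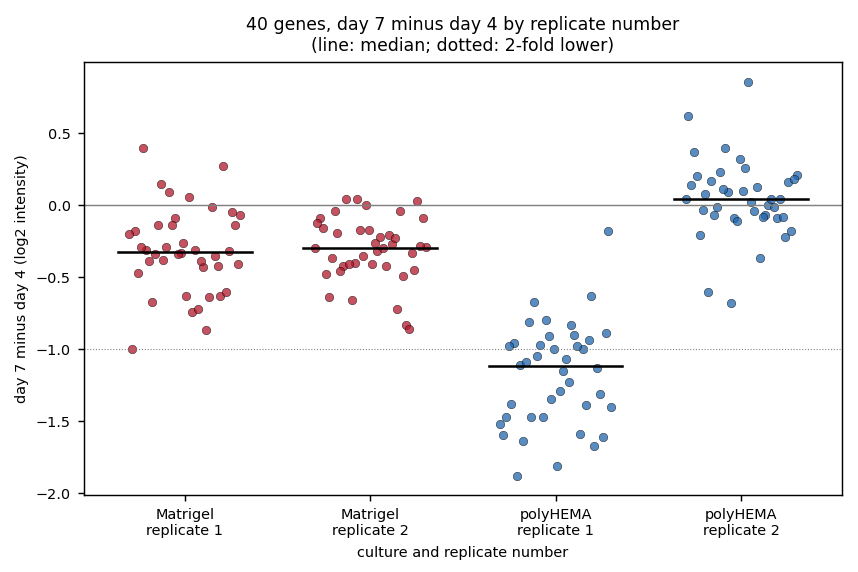
Log2 intensity on day 7 minus day 4 (vertical axis) for the 40 genes, by culture and replicate number (horizontal axis), with a line at the median and a dotted line at 2-fold lower. The medians are -0.32 and -0.30 for Matrigel, -1.12 for polyHEMA replicate 1 and 0.04 for polyHEMA replicate 2.

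Set directly against each other, polyHEMA had lower levels than Matrigel on both days. In PH4d 5 of the 40 genes were lower than in MG4d and none was higher, where 3.91% of all genes were lower and 8.33% higher. The 5 were CCNA2, which encodes cyclin A2 of S and G2 phase, KIF23, TPX2, which activates Aurora A on the spindle, NUSAP1 and PRC1. CCNA2 had 9.84 and 9.15 in PH4d, with a mean of 9.5 against 10.83 in MG4d, and fell by 1.33 (standard error 0.31, adjusted p = 0.0226). KIF23 had 9.01 and 6.92 against 10.04 and 9.84 (adjusted p = 0.0449). The median over the 40 genes was -0.97 (all genes -0.03), and both PH4d arrays were below both MG4d arrays for 34 of them and above for none, where 24.7% and 26.6% of all genes were.

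By day 7 the count was 14 lower and none higher, where 3.84% and 5.57% of all genes were called. All 40 genes had a lower mean in PH7d than in MG7d, with a median of -1.28 (all genes -0.02), and for 32 both PH7d arrays were below both MG7d arrays, where 26.5% of all genes were. ASPM had 8.27 and 7.56 in PH7d against 10.50 and 10.46 in MG7d, a log2 difference of -2.56 (standard error 0.65, adjusted p = 0.0383). PRC1 had 9.95 and 10.18 against 11.76 and 11.94, a fall of 1.79 with the lowest adjusted p of the 40 genes (standard error 0.32, adjusted p = 0.00993).
For these genes the replicates of each group lay closer to each other than to any array of the other group. KIF23, DLGAP5, TOP2A and KIF11 fell by 2.32, 2.24, 2.18 and 2.14. CENPE, the kinesin that brings chromosomes to the spindle equator, had 7.85 and 6.47 in PH7d against 9.17 and 9.54 in MG7d (adjusted p = 0.0472). NUF2 was not detected by its brightest probe on either PH7d array and was at least 3.64-fold lower there (adjusted p = 0.0414). A second NUF2 probe differed by -2.34.

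The calls on day 7 covered 8 of the 11 kinesins and spindle proteins, 2 of the 5 centromere and kinetochore genes (CENPE and NUF2), 2 of the 5 kinases and partners (AURKA and TPX2), CCNA2 of the 8 CDK1 and cyclin genes, TOP2A, and none of the checkpoint or anaphase genes. The 5 genes called on day 4 were among the 14 called on day 7. The comparisons share no array, but both take the spread of a gene from the same model, so the overlap is no independent repeat. For AURKB, PLK1, CDC20, BIRC5 and MKI67 the PH7d and MG7d arrays overlapped, with differences from -0.41 (MKI67) to -0.83 (CDC20), and UBE2C, an anaphase-promoting complex enzyme, had probes of opposite sign (-0.80 and 0.51). CDK1 differed by -1.65 (adjusted p = 0.077) and CCNB1 by -0.39.

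The size of these counts moved with single arrays. For PH4d against MG4d 21 genes were lower without PH4d replicate 1 (15.1% of all genes), 0 without PH4d replicate 2 (3%) or without either MG4d array (0.766% or less), 9 without either PH7d array (5.63%), and 1 without any 1 array of MG7d, the xenografts or 2D7d (2.42% to 2.81%). For PH7d against MG7d the count was 23 without either PH4d array (6.81% of all genes), 18 with PH7d replicate 2 left out (3.31%) and 10 with PH7d replicate 1 left out (9.81%). It was 4 without either MG4d (2.42%) or either 2D7d array (2.86%), 3 without either xenograft array (2.37%) and 0 without either MG7d array (0.711% or less). With replicate 2 as the only polyHEMA array of each day, 24 genes were lower on day 4 (21.8% of all genes) and 19 on day 7 (21.8%), and with replicate 1 only, 7 (6.92%) and 35 (7.67%). No gene of the 40 was called higher on polyHEMA with either replicate alone. Of the 4 endothelial markers, PECAM1 was higher in PH4d than in MG4d by 1.12 and in PH7d than in MG7d by 1.46, VWF and KDR were not detected on any polyHEMA array, CDH5 was detected on 1 array of each day, and the list summed to 532.4 to 683.9 in PH4d and 532.4 to 619.8 in PH7d, against 444.6 to 452.2 in MG4d and 411.5 to 465 in MG7d. The leukocyte marker CSF1R was higher in PH4d than in MG4d (1.53, adjusted p = 0.018), while CD68 differed by -0.15 with no call. PTPRC and LYZ were not detected in either, and that list summed to 1010 to 1108 in PH4d and 753.2 to 949.7 in MG4d. These cultures were grown from JIMT1 cells alone, and the part of such marker shifts in the results was not tested.

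In the xenografts, 2 of the 40 genes were higher and 1 was lower than in 2D7d, where 16.4% and 14.7% of all genes were called. KIF11 had 9.42 and 9.15 in the xenografts against 7.38 and 7.29 in 2D7d, a rise of 1.95 (standard error 0.52, adjusted p = 0.0275). KIF23 had 9.47 and 9.36 against 8.07 and 7.55, a rise of 1.60 (adjusted p = 0.0487), while a second KIF23 probe differed by 0.63. PLK1 had 7.67 and 7.6 against 9.37 and 9.74, a fall of 1.92 (standard error 0.62, adjusted p = 0.0413).
The tumor arrays lay apart from the monolayer arrays in each case. The median over the 40 genes was 0.21 (all genes 0.01), with both xenograft arrays above both 2D7d arrays for 21 genes and below for 15, where 43.7% and 43.3% of all genes were. TOP2A had 11.43 and 11.50 in xenografts against 9.78 and 9.96 (1.60, adjusted p = 0.0524), CDK1 had 9.89 and 10.19 against 8.44 and 8.81 (1.41, adjusted p = 0.0569) and AURKB had 8.46 and 8.49 against 10.02 and 10.42 (-1.75, adjusted p = 0.06). CDC20 differed by -1.0, BIRC5 by -0.64, CCNB1 by -0.43 and MKI67 by 0.13, with no call.

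With all polyHEMA arrays left out, 12 of the 40 genes were higher and 7 lower in the xenografts than in 2D7d (25.4% and 18.4% of all genes). The 7 that fell were PLK1 (1.92), AURKB (1.75), FOXM1 (1.61), CDC25C, a phosphatase that activates CDK1 (1.16), PTTG1, the securin that guards sister chromatid cohesion (1.07), KIF2C, a kinesin that takes microtubules apart (1.05), and CDC20 (1.00). The 12 that rose were led by KIF11 (1.95), TTK (1.77) and HMMR (1.75). Among the counts that follow, those without a percentage do not show whether the 40 genes moved apart from all genes. In the full model the count of 3 became 0 without either xenograft array or without 2D7d replicate 2, and 1 without 2D7d replicate 1 or any 1 Matrigel array. It was 15 without either PH4d array (24.2% of all genes higher and 18% lower) and 13 without either PH7d array (22.9% and 17.8%).

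Some markers of host tissue were higher in the xenografts than in 2D7d, and others were not. Of 6 fibroblast markers, 3 were detected on both xenograft arrays against 1 in 2D7d (COL1A1), and their summed intensity before correction was 1037 to 1128 in xenografts and 601.9 to 642.9 in 2D7d. DCN, or decorin, was at least 3.15-fold higher (adjusted p = 7e-05) and LUM, or lumican, at least 1.69-fold (adjusted p = 0.0112). COL1A1 differed by 0.4 with no call, and COL1A2 and PDGFRB were not detected. The leukocyte markers PTPRC and LYZ and the endothelial markers CDH5, VWF and KDR were not detected on the xenograft arrays. The endothelial marker PECAM1 differed by -0.25 with no call, and its list summed to 343.3 to 379.3 in xenografts and 399 to 417 in 2D7d. CD68, a macrophage marker, was called higher in the xenografts (1.12, adjusted p = 0.0136), and CSF1R differed by 0.28 with no call. The leukocyte list summed to 1222 to 1337 in xenografts and 772 to 840.8 in 2D7d. Of 4 erythroid markers, HBA2 was detected in both groups, with a mean of 8.19 in xenografts and 6.88 in 2D7d and no call. Their part in the values of the mitotic genes was not tested.

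The tumors were then set against the cultures of 7 days. No gene of the 40 was called between xenografts and MG7d (3.32% of all genes higher and 2.44% lower), 1 had an unadjusted p under 0.05, beside 17.4% of all genes, and the median was -0.27 (all genes -0.02). Both xenograft arrays were below both MG7d arrays for 25 genes and above for 3, where 35.1% and 34.1% of all genes were. KIF2C, with 8.81 and 8.94 in xenografts against 9.77 and 10.06 in MG7d, was called lower with the polyHEMA arrays left out (a fall of 1.04, adjusted p = 0.00106), where 4.88% of all genes were lower.

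Compared with PH7d, 4 genes were higher in the xenografts and none was lower, where 3.35% and 3.99% of all genes were. KIF11 had 9.42 and 9.15 in xenografts against 7.6 and 6.59 in PH7d (2.19, standard error 0.52, adjusted p = 0.0334). PRC1 had 11.60 and 11.44 against 9.95 and 10.18 (1.46, adjusted p = 0.0265), and CCNA2 had 10.10 and 10.04 against 8.37 and 9.06 (1.36, adjusted p = 0.0293).
The fourth was KIF20A, a kinesin of the cleavage furrow, with 9.72 and 9.67 against 7.95 and 8.97 (1.23, adjusted p = 0.0498). The median over the 40 genes was 0.92 (all genes -0.01), and both xenograft arrays were above both PH7d arrays for 26 and below for none, where 26.3% and 29.3% of all genes were. TOP2A differed by 1.93 (adjusted p = 0.0748), CDK1 by 1.36, BIRC5 by 1.01 and MKI67 by 0.71, and AURKB and PLK1 by 0.21 and 0.16. MKI67 was not detected on either PH7d array, so its difference is read against background. The count was 18 without either PH4d array (6.5% of all genes higher), 10 with PH7d replicate 2 left out (2.87%), 5 with PH7d replicate 1 left out (7.93%), 1 without either 2D7d array (2.68%) and 0 without any 1 array of the xenografts, MG4d or MG7d.

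Other genes of cell division were followed by lists. The shares of all genes called higher and lower against 2D7d were 10.2% and 11.5% in MG4d, 10.8% and 10.3% in MG7d and 16.4% and 14.7% in the xenografts. Of 49 tested among 51 other mitosis genes, 19 were higher in MG4d than in 2D7d and none was lower, with a median of 1.05, and 12 were higher in MG7d. PLK4, the kinase that starts centriole duplication, rose by 2.62 in MG4d (adjusted p = 0.0342) and 2.71 in MG7d. SGO2, which protects centromeric cohesion, and CENPK, a centromere protein, were not detected in 2D7d and were at least 3.64-fold and 4.07-fold higher in MG4d. In PH4d and PH7d 13 of the 49 were lower than in the Matrigel culture of the same day, with KIF18A, a kinesin that shortens kinetochore microtubules, lower by -2.45 in PH4d and ANLN, the cytokinesis scaffold anillin, by -2.54 in PH7d. Against 2D7d, 1 was lower in PH7d, TROAP (-1.57, adjusted p = 0.0311). In the xenografts 4 were higher and 4 lower than in 2D7d, among them PLK4 (2.11) and CENPM (-1.84), a lower share than over all genes in both directions, and 4 were higher than in PH7d.

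Genes of DNA replication and S phase, 35 tested of 39, were higher in MG4d for 13 and lower for none, with a median of 0.55. RRM2, a subunit of ribonucleotide reductase, rose by 2.2 (adjusted p = 0.0136), MCM10, a replication initiation factor, by 2.19 and PRIM1, a primase subunit, by 1.84. In MG7d 4 were higher and 1 lower, with a median of 0.07, and the lower one was E2F1, a transcription factor of S phase, not detected in MG7d and at least 2.29-fold lower. In PH4d 10 were lower than in MG4d, led by POLE2, a polymerase subunit (-1.96, adjusted p = 0.00221), and in PH7d 5 were lower than in MG7d. In the xenografts 3 were higher and 2 lower than in 2D7d, a lower share than over all genes, and none was called against 2D7d in PH4d or PH7d.

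The regulators of these promoters were measured too. Of 15 DREAM and MuvB genes, 4 were higher in MG4d, 6 in MG7d and 6 in the xenografts than in 2D7d, where 10.2%, 10.8% and 16.4% of all genes were, and 1 was lower, in the xenografts. None of the 4 called in MG4d was detected on a 2D7d array. They passed the filter on dim probes only through other groups, and their differences to 2D7d are read against background. RBBP4, a histone-binding MuvB subunit, was 1 of them and was at least 4.85-fold higher in MG4d, 5.95-fold in MG7d and 4.99-fold in the xenografts. LIN54, the MuvB subunit that binds the CHR, was at least 3.41-fold higher in MG4d. MYBL2, which encodes B-MYB, was lower in the xenografts by -1.57 (adjusted p = 0.035) and differed by -0.12 in MG4d and -1.45 in MG7d (adjusted p = 0.05, not called). None of the 15 was called on polyHEMA against either 2D7d or Matrigel.

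Of 12 tested subunits of the anaphase-promoting complex, 3 were higher in MG4d (CDC26, CDC23 and ANAPC7, by 1.23, 1.06 and 1.02), 1 in MG7d (ANAPC1, 1.39) and 1 in the xenografts (ANAPC13, 1.72), where 10.2%, 10.8% and 16.4% of all genes were. Of 15 regulators of mitotic entry, 4 were higher in MG4d, led by MASTL, the Greatwall kinase that restrains the phosphatase opposing CDK1 (2.36, adjusted p = 0.0145), and FBXO5, or EMI1, an inhibitor of the anaphase-promoting complex (2.33). SFN, a 14-3-3 protein linked to G2 arrest, was lower than in 2D7d by -2.29 in MG7d and -2.36 in PH7d. CDKN1A, the CDK inhibitor p21, was higher in PH4d than in 2D7d by 1.65 (adjusted p = 0.0272) and than in MG4d by 1.43, and GADD45A, a stress gene linked to G2 arrest, was lower in PH4d than in both. Of 11 housekeeping genes, 2 were higher in MG4d than in 2D7d (HPRT1 by 1.33 and TFRC by 2.31), 1 in MG7d (HPRT1 by 1.17), 1 in PH4d and PH7d (B2M) and none in the xenografts. Against Matrigel, HPRT1 was called lower on polyHEMA (-1.35 on day 4 and -1.48 on day 7) and B2M higher, and the part of such shifts in the other results was not tested.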

How the data were processed

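RNA of 12 samples was measured on Illumina HumanHT-12 v4 arrays, a 1-colour platform. The authors deposited a table of raw intensity per probe, with no background subtracted, and a detection p-value per probe from the negative controls. The authors also deposited values that they had processed with lumi to a scale close to log2, whose version is not given in the sources used here. Of their rows, 81.41% stand under another probe ID than in the raw table. These values were used as an alternative after matching by rank, and their scale at low signal is unknown. Here the function neqc (limma 3.58.1, R 4.3.3) applied normexp background correction with an offset of 16, quantile normalisation and a log2 transform. A probe was kept if, in 1 group or more, both arrays had a detection p-value under 0.01, and each gene was read from its brightest kept probe. Of the 40 genes, 19 had several kept probes, which differed in sign for 2 genes in MG4d and in MG7d against 2D7d, for 5 in PH4d and for 3 in PH7d.

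One limma model with 6 group means (6 residual degrees of freedom) gave 11 comparisons and the difference between the day changes. A call is a Benjamini-Hochberg adjusted p under 0.05 over 10970 genes and at least a 2-fold difference. The scripts were tested on simulated data. The 40 genes and the other lists were chosen with earlier results of these data known. The text names genes called in a comparison, at most 8 of the largest, and follows CDK1, CCNB1, AURKB, PLK1, KIF11, TOP2A, MKI67, BIRC5 and CDC20 throughout, with at most 3 called genes of another list per comparison. Others are named for completeness of the 40. Replicates are biological by the study's methods, and the number of arrays limits the precision. Alternatives covered background, offset, scaling, the authors' values, the filter, the probe rule, array weights, a replicate block, the arrays in the fit, and leaving out each array.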

Additional observations from a re-analysis of the deposited data

Results flagged for a closer look

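Genes of the 40 for which the difference to 2D7d differed between culture models, by the test of the difference itself, are listed here. Between PH4d and MG4d these were KIF23 (-1.97), NUSAP1 (-1.36), CCNA2 (-1.33), TPX2 (-1.18) and PRC1 (-1.12), given as log2 differences. Between PH7d and MG7d these were ASPM (-2.56), KIF23 (-2.32), DLGAP5 (-2.24), CENPE (-2.20), TOP2A (-2.18), NUF2 (-2.16), KIF11 (-2.14), PRC1 (-1.79), NUSAP1 (-1.74), TPX2 (-1.48), CCNA2 (-1.38), KIF4A (-1.32), AURKA (-1.25) and KIF20A (-1.23). The brightest NUF2 probe was not detected on either PH7d array, so its value here is read against background and the bound given above applies. Between the xenografts and PH7d these were KIF11 (2.19), PRC1 (1.46), CCNA2 (1.36) and KIF20A (1.23). No group had the 4 or more samples that a search for single outlying arrays would need.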

How the results depend on the processing

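Every change of setting in this section kept the direction of the 47 calls of single genes. Over alternatives other than leaving out single arrays, 431 of 541 repeats of a call kept it and 110 lost it. Over leaving out single arrays, 213 of 564 kept it and 351 lost it. The counts of called genes that moved by over 1.5 times follow, as genes of the 40. Counts in this section stand without the share over all genes, so they do not show whether the 40 genes moved apart from all genes.

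With no detection filter the counts were 5 in MG4d, 1 in MG7d and 1 in the xenografts against 2D7d, 1 in PH4d against MG4d, 5 in PH7d against MG7d and 2 in the xenografts against PH7d. With array weights and with only the groups compared they were 20 in MG4d, 22 in MG7d and 19 in the xenografts against 2D7d and 1 between the xenografts and MG7d, as with replicate 1, replicate 2 or all of the polyHEMA arrays left out. Array weights gave 0 in PH4d against MG4d and 7 in the xenografts against PH7d. Only the groups compared gave 0 in PH4d against MG4d, 2 in PH7d against MG7d and 0 in the xenografts against PH7d. Median scaling moved the median of all genes against 2D7d to 0.21 in PH7d, 0.18 in MG7d, 0.17 in the xenografts and 0.16 in PH4d, with medians of the 40 genes of -0.73, 0.54, 0.46 and -0.16 in that order, and gave 5 calls in the xenografts against 2D7d, 3 in PH4d against MG4d, 7 in PH7d against MG7d and 0 in the xenografts against PH7d. In the xenografts against 2D7d the count was 7 with no background correction or the mean of kept probes, and 5 with an offset of 50 or the authors' processed values. In PH7d against 2D7d it was 1 with no background correction. With the polyHEMA arrays of replicate 1 left out the counts were 3 in PH4d and 4 in PH7d against 2D7d, 24 in PH4d against MG4d and 18 in the xenografts against PH7d. With those of replicate 2 left out they were 18 and 21 against 2D7d, 21 between the polyHEMA days, 35 in PH7d against MG7d, 29 in the xenografts against PH7d and 10 for the difference between day changes. The cause was not tested beyond what each setting itself removes.

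Replicate numbers were tested as a pairing. Deviations of arrays with the same number had correlations between -0.116 (MG4d and xenografts) and 0.874 (PH4d and PH7d), and not every pair lay over 0.1. The labels do not say that a number marks a shared culture or day, so the block is given as an alternative only. With the replicate block the counts were 19 in MG7d, 7 in PH7d and 17 in the xenografts against 2D7d, 9 in PH4d against MG4d and 8 in the xenografts against PH7d, and 17 in MG4d against 2D7d and in PH7d against MG7d.

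Leaving out 1 array gave 0 to 19 calls in MG4d, 0 to 20 in MG7d, 0 to 12 in PH4d, 0 to 20 in PH7d and 0 to 15 in the xenografts against 2D7d. It gave 0 to 21 in PH4d against MG4d, 0 to 23 in PH7d against MG7d, 0 to 1 in the xenografts against MG7d and 0 to 18 in the xenografts against PH7d. It gave 0 throughout between the days of Matrigel or of polyHEMA and for the difference between day changes. Signal near background limits MKI67, NUF2 and BUB1B.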
